A study of Glycine max with 30 samples.

Results

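Among the regions of the soybean genome that carried trimethylated lysine 4 of histone H3 (H3K4me3) at every stage sampled, 992 were covered over at least 75% more bases in seedlings than in embryos. They were found by merging the 5 deposited H3K4me3 peak lists wherever peaks overlapped by 1 bp, which gave 59325 union regions. Of these, 33502 were present in all 5 lists, and 31907 of them held no peak of 2500 bp or more and are called eligible here. The 992 regions are the eligible ones whose covered bases in the seedling list exceeded the mean of the 4 embryo lists by at least 75%, which was 3.11% of the eligible regions. In the opposite direction, the embryo mean exceeded the seedling bases by at least 75% in 635 eligible regions (1.99%). The 992 regions were chosen by their H3K4me3 covered bases in seedlings and embryos, so their widths and peak scores in seedlings against embryos are given as a description only.

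H3K4me3 was mapped by chromatin immunoprecipitation and sequencing (ChIP-seq) in Glycine max cultivar Williams 82, and the labels name no transgene, mutation or treatment. The embryo groups were whole embryos of the cotyledon stage from seeds 2.5 to 3.5 mm long, of early maturation from seeds of 6 to 7 mm, of mid-maturation from seeds of 200 to 250 mg, and of late maturation from yellow seeds of 230 to 500 mg. The remaining group was seedlings at 8 days after sowing. Each stage had 2 replicates with each of 3 antibodies, against H3K4me3, against H3 trimethylated at lysine 27 (H3K27me3) and against total H3, which makes 30 samples. Late maturation embryos were ground frozen, crosslinked on ice and taken through a density gradient, so for this stage development and protocol cannot be told apart. The tissues are mixtures of cell types, in which a mark in more cells and a wider mark in the same cells cannot be told apart.

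The deposited lists pool both replicates, 1 list per stage and mark. Values below therefore have no replicate error, and no difference between stages was tested. The H3K4me3 lists held between 41536 peaks at late maturation and 52891 in seedlings. The shortest peak was 129 bp in the cotyledon list, 177 bp in that of early, 197 bp in those of mid- and late maturation and 124 bp in the seedling list. The part of unequal calling between the lists in the results was not tested, and the lists do not give the depth of the libraries. The labels cannot be checked against marker genes, because the lists name no genes and no annotation of their genome build was used.

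In plants as in animals, H3K4me3 is placed by COMPASS-like methyltransferases over the start of transcribed genes, and it reaches from the transcription start into the gene body. The length it covers tends to accompany transcription. H3K27me3 is placed by Polycomb repressive complex 2 over silent developmental genes, often along the whole gene, and in Arabidopsis this complex shuts down the embryo programme as a seedling develops. A region that carries both marks in a tissue may hold them on the same nucleosomes or in different cells, and ChIP-seq of a whole tissue does not separate these cases.

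The regions were narrow in embryos and wide in seedlings compared with the other 30915 eligible regions. Their median covered length was 531 bp in cotyledon-stage embryos, 684.5 bp in early, 838 bp in mid- and 599 bp in late maturation embryos, and 1530 bp in seedlings. The other eligible regions had medians of 1076, 1128, 1075, 911 and 1084 bp in the same order. At the cotyledon stage 12.3% of the 992 regions reached the median of all eligible regions, at mid-maturation 25.3% and in seedlings 78.1%. The regions thus lay on the narrow side of the shared H3K4me3 regions at each embryo stage and on the wide side in seedlings.

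**Figure D1:**
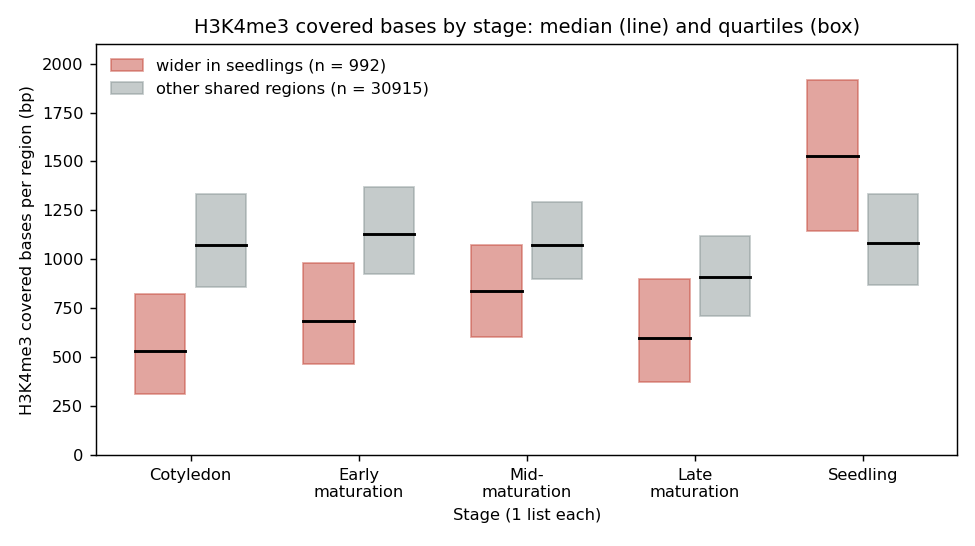
H3K4me3 covered bases per region (bp, vertical axis) at each of the 5 stages, for the 992 regions wider in seedlings (red) and the other 30915 eligible regions (grey). Black lines are medians and boxes run from the lower to the upper quartile over regions. The red medians lie below the grey ones at the 4 embryo stages and above the grey one in seedlings, 1530 against 1084 bp.

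The ratio of seedling bases to the embryo mean had a median of 2.04 and quartiles of 1.87 and 2.35, and reached 8.39. The bases gained over the embryo mean ranged from 225.5 to 1774 bp, with a median of 781 bp. Seedlings exceeded each of the 4 embryo lists in 960 of the 992 regions. They exceeded every embryo list by at least 75% in 255 regions. Against single lists, this excess was reached in 853 regions for the cotyledon list, 712 for early maturation, 533 for mid-maturation and 776 for late maturation. Mid-maturation was thus the embryo stage at which the fewest regions were that far below seedlings. This was not particular to the 992 regions. Among the other eligible regions the excess was reached in 1384, 398, 305 and 3009 regions from the cotyledon stage to late maturation. Mid-maturation thus had the fewest there too. The rule used these widths, so the counts are a description only.

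The regions just inside and just outside the limit of a 75% excess had nearly the same ratio, but their embryo lists were not always alike. Just inside, a region on chromosome 17 from 41421365 to 41422775 was covered over 727, 948, 1038, 511 and 1411 bp from the cotyledon stage to seedlings, a ratio of 1.751. Just outside, one on chromosome 1 from 4891688 to 4893174 was covered over 984, 889, 994, 534 and 1487 bp, a ratio of 1.749. The 4 members nearest to the limit had ratios of at most 1.751, and the 4 nearest regions left out had ratios of 1.748 to 1.749. Of these members, that of chromosome 7 from 37976751 to 37978734 was covered over 1953, 800, 959, 304 and 1757 bp in the same order. Its cotyledon list was thus wider than its seedling list.

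Positions are those of the lists, counted from 1, on a genome build that is not given in the sources used here. The 8 regions with the largest ratio show the pattern in its plainest form. The first lay on chromosome 11 from 8014285 to 8016098 and was covered over 147 bp in cotyledon-stage embryos, 262 bp in early, 259 bp in mid- and 197 bp in late maturation embryos, and 1814 bp in seedlings, 8.39 times the embryo mean of 216 bp. All 4 embryo peaks were short there, and the late maturation peak had the shortest width found in its list. They lay at the right end of the seedling peak, whose left edge was 1451.5 bp further out than the embryo mean and whose right edge was 146 bp further out. The authors' peak score at this place was 3.17, 5.21, 6.51 and 3.18 at the embryo stages and 83.7 in seedlings.

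A region on chromosome 8 from 14277277 to 14279174 was covered over 375, 249, 414 and 296 bp in the embryo lists, from the cotyledon stage to late maturation, and over 1898 bp in seedlings. Its left edge moved out by 1441 bp and its right edge by 124 bp. A region on chromosome 15 from 738386 to 740474 was the mirror image. It was covered over 446, 283, 340 and 429 bp in embryos and over 2089 bp in seedlings, with the right edge 1606 bp and the left edge 109 bp further out. The next was on chromosome 4 from 47272550 to 47274178, covered over 158, 382, 412 and 271 bp in embryos and 1629 bp in seedlings. It was followed by one on chromosome 18 from 60520016 to 60521828, covered over 460, 439, 329 and 260 bp in embryos and 1813 bp in seedlings. Both had also grown mainly on the left, by 1170 and 1342 bp.

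Of the remaining 3, a region on chromosome 10 from 40191347 to 40193050 was the only 1 of the 8 that grew past 200 bp on both sides, by 545 bp on the left and 798 bp on the right. It was covered over 470, 301, 413 and 260 bp in embryos and 1704 bp in seedlings. A second region of chromosome 4, from 46258921 to 46261182, was covered over 667, 489, 612 and 234 bp in embryos and 2251 bp in seedlings, with the left edge 1661 bp further out. A region on chromosome 16 from 983506 to 985381 was covered over 424, 479, 488 and 340 bp in embryos and 1876 bp in seedlings. In all 8 regions each of the 5 lists held the mark as 1 peak.

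**Figure D2:**
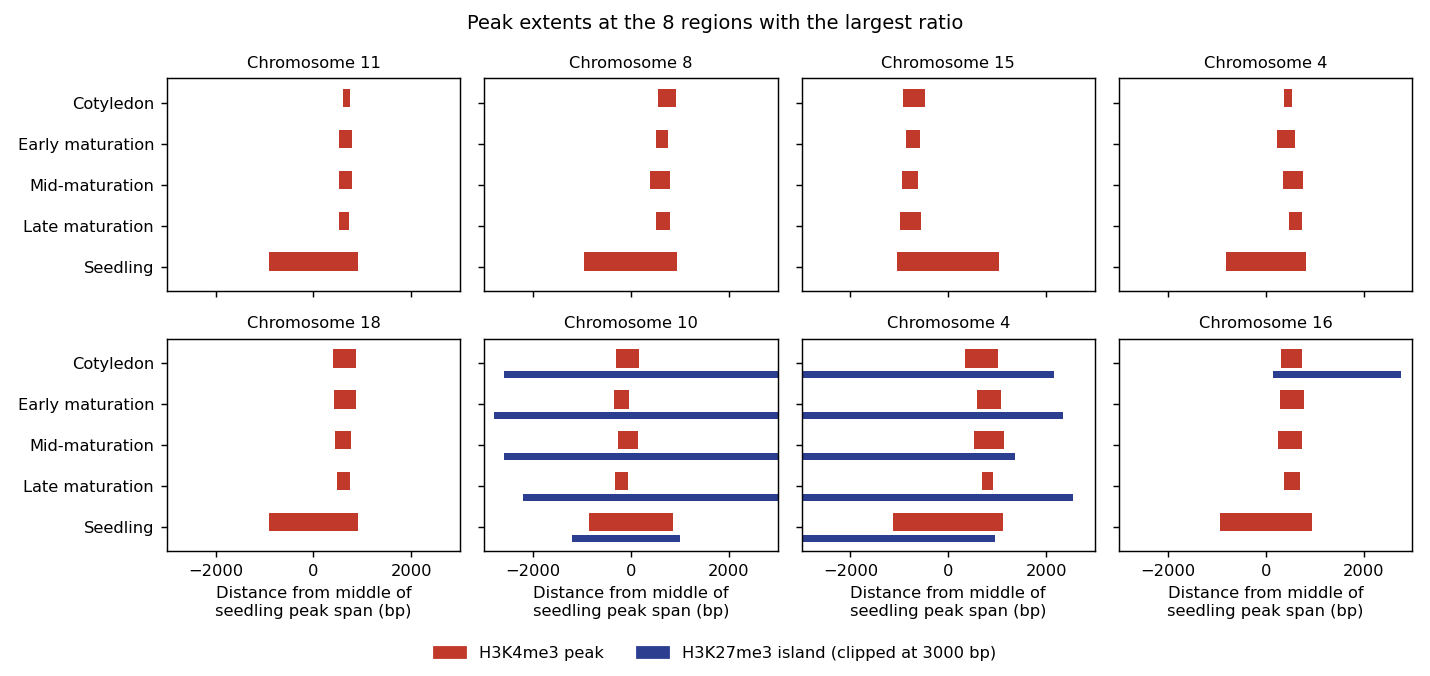
Extents of H3K4me3 peaks (red) and H3K27me3 islands (blue, clipped at 3000 bp) at the 8 regions with the largest ratio, with distance from the middle of the seedling peak span (bp) on the horizontal axis and the 5 stages from top to bottom. In 7 of the 8 the short embryo peaks sit near one end of the seedling peak, and in the region of chromosome 10 they sit within it.

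The most bases over the embryo mean, 1774, were gained on chromosome 8 from 15704231 to 15706730. That region was covered over 305, 950, 1295 and 317 bp in embryos and 2491 bp in seedlings, so its early and mid-maturation peaks were wider than those of the other 2 embryo stages. A region of chromosome 6 from 11533274 to 11535631 was covered over 812, 674, 898 and 264 bp in embryos and 2341 bp in seedlings. Its right edge moved out by 1636.5 bp, while the left edge moved by 42.5 bp. The largest gain on the right with a still left edge was on chromosome 4 from 6918990 to 6921536, where the right edge lay 1656 bp further out and the left edge 12.5 bp further in. On the left, a region of chromosome 16 from 3152226 to 3154661 gained 1660 bp with no shift of its right edge.

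The widening was mostly on 1 side. With an edge counted as moved when it lay more than 200 bp outside the mean embryo edge, 802 of the 992 regions (80.8%) had moved on 1 side, where 17.9% of all eligible regions had. Both edges had moved in 169 regions (17.0%; 0.79% of all eligible regions), and neither in 21. The rule used this contrast, so the comparison with the eligible regions is no finding; the split of the gain between the sides is not fixed by the rule, although the limit of 2500 bp bounds their sum. Left and right were about equally frequent, with 403 regions moved on the left only and 399 on the right only. The median gain was 655 bp on the side that gained more and 90.0 bp on the other side. Of the 802 regions moved on 1 side, 527 (65.7%) had the other edge within 100 bp of its mean place in embryos. Over all eligible regions moved on 1 side this share was 86.6%, but the rule bears on this comparison too, so it is no finding. The count depends on the limit set for an edge, since 54.5% of the regions had moved on 1 side with a limit of 100 bp and 76.8% with a limit of 400 bp.

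**Figure D3:**
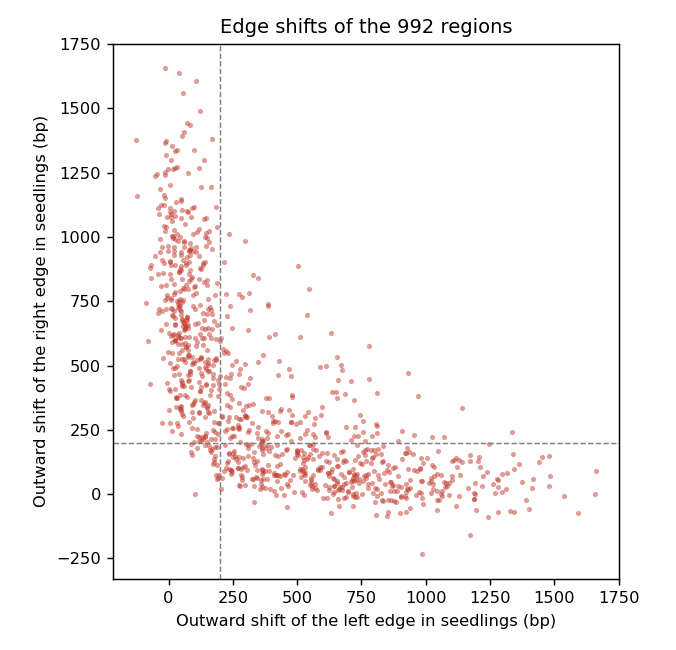
Outward shift of the left edge (horizontal axis, bp) and of the right edge (vertical axis, bp) of the seedling mark relative to the mean edge of the 4 embryo lists, 1 point for each of the 992 regions. Dashed lines mark 200 bp. The points form 2 arms along the axes, with 403 regions moved on the left only, 399 on the right only and 169 on both sides.

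At base level, 33.5% of the seedling H3K4me3 bases in these regions were covered in no embryo list, a median of 456 bp per region. In the other eligible regions this share was 3.57%. Of the seedling bases, 39.1% were also covered in cotyledon-stage embryos, 47.8% in early, 54.9% in mid- and 42.7% in late maturation embryos. Over all eligible regions these shares were 87.2, 90.7, 89.5 and 78.1%. The rule itself limits how much of the seedling bases the embryo peaks can cover. The base-level contrasts with the other and with all eligible regions are therefore a description only. A core was shared, with a median of 333.5 bp per region covered in all 5 lists. However, 51 regions had no base that all 5 lists covered, and 11 had no seedling base outside the embryo lists. Fewer of the regions were split into more than 1 peak in seedlings than at any embryo stage. A gap between peaks lowers the covered bases, so the rule itself favours this order, which is a description only. In the cotyledon list 11.2% of the regions were split into more than 1 peak, in those of early, mid- and late maturation 8.27, 7.96 and 7.46%, and in the seedling list 4.03%. Over all eligible regions seedlings were the most often split list, with 5.28%, and the embryo lists had 4.94, 1.95, 1.66 and 3.18% from the cotyledon stage to late maturation.

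The embryo lists entered the rule only through their mean, so the choice of regions does not set their order among themselves directly. The choice can still affect this order, which is a description given here without a test. Mid-maturation was the widest embryo list in 440 of the 992 regions (44.4%; 24.7% of all eligible regions), and the cotyledon list was the narrowest in 443 (44.7%, against 18.7% of the other eligible regions). Late maturation, the narrowest embryo list in 67.5% of the other eligible regions, was the narrowest in 34.0% of these. Covered bases increased from the cotyledon stage over early to mid-maturation in 457 regions (46.1%; 23.6% of all eligible regions) and decreased over both steps in 96 (9.68%; 20% of all eligible regions). Late maturation interrupted this order, as its list was narrower than that of mid-maturation in 691 of the 992 regions (69.7%), and in 80.8% of the other eligible regions. With late maturation left out of the embryo mean, 1026 regions met the rule, and mid-maturation was the widest embryo list in 36.8% of them.

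Peak scores moved with the widths. The authors do not state what the score measures, so each region's highest score was ranked within its own list. The median percentile of the 992 regions was 20.7 in the cotyledon list, 23.2 in the early, 30.2 in the mid- and 23.1 in the late maturation list, with 55.9 for seedlings. The other eligible regions had medians of 62.2, 62.7, 65.0, 59.3 and 68.0. The embryo peaks of these regions were therefore among the weaker ones of their lists, and their seedling peaks were close to the middle of theirs. Over all 31907 eligible regions, covered bases and score had a Spearman rho between 0.497 at mid-maturation and 0.649 at late maturation, which describes regions of 1 list and not replicates. The part of peak strength in the change of width was not tested. Few of the 992 regions were covered over no more than the shortest peak width of a list, but they made up a large part of the eligible regions that were. They were 14 of 43 such regions in the cotyledon list, 2 of 8 in the early, 2 of 7 in the mid- and 10 of 65 in the late maturation list, with 0 of 7 for seedlings. When only the peaks at or above the median score of each list were kept, 15197 regions were eligible and 57 of them (0.375%) met the rule, 45 of which were among the 992.

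H3K27me3 comes from other libraries and was not used to choose the regions. At an authors' false discovery rate (FDR) of 0.05, 41.9% of the 992 regions lay under an H3K27me3 island in cotyledon-stage embryos (95% Wilson interval 38.9 to 45.0). The share was 31.7% in early (28.8 to 34.6), 30.0% in mid- (27.3 to 33.0) and 35.8% in late maturation embryos (32.9 to 38.8), and 30.4% in seedlings (27.7 to 33.4). Over all eligible regions the shares were 17.2, 13.1, 11.3, 14.7 and 14.3%. Wilson intervals here cover counting error only, and regions that share an island or a neighbourhood are not independent. Regions that were narrower in seedlings held H3K27me3 in 31.5, 21.3, 17.5, 23.5 and 34.2% of cases from the cotyledon stage to seedlings, so a share above the background was found at both ends of the width change. The 2 groups differed in order. Seedlings had the highest share of the 5 stages for the narrower regions, and the cotyledon stage for the wider ones. The cotyledon share was also the highest over all eligible regions, so this order is not particular to the wider regions. The cotyledon list also held the most H3K27me3 islands at this FDR, 21435, against 14155 to 19398 in the other lists. No test over regions was made.

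**Figure D4:**
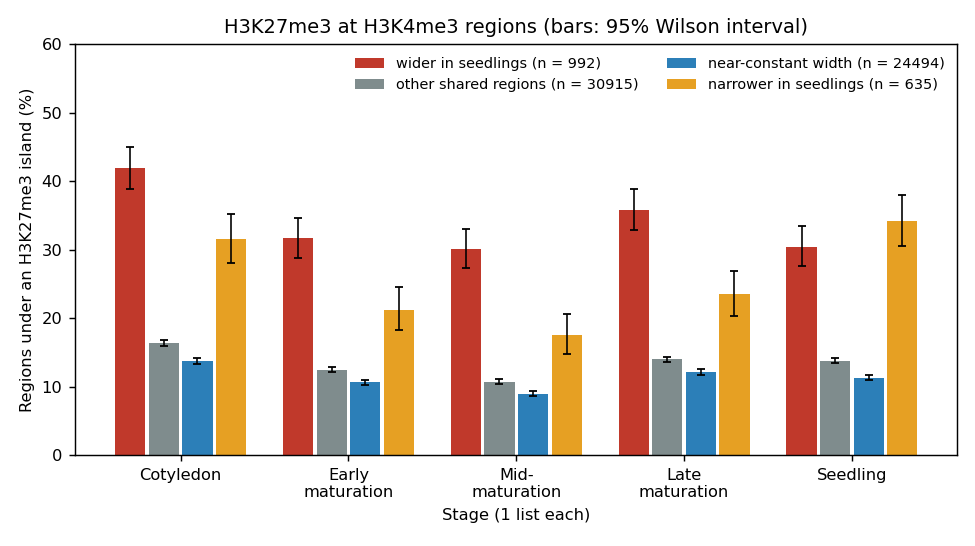
Share of regions under an H3K27me3 island (%, vertical axis) at each of the 5 stages, for the 992 regions wider in seedlings (red), the other eligible regions (grey), those of near-constant width, in which seedlings and embryo mean differ by at most 25% of the smaller (blue), and those narrower in seedlings (orange). Error bars are 95% Wilson intervals over regions. The red bars run from 30.0 to 41.9% and the blue bars from 8.96 to 13.8%.

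Both the 992 regions and the other eligible regions held H3K27me3 more often where their embryo H3K4me3 was narrow. The order was not the same in the regions narrower in seedlings. There, regions with H3K27me3 at all 5 stages had a median of 1033 bp at the cotyledon stage, and those without it at any stage 778.5 bp. Early and mid-maturation had the same direction as the cotyledon stage. Late maturation had the opposite one, with medians of 495.5 and 562.5 bp. Among regions with an embryo mean under 500 bp, the cotyledon share was 55.4% for the 242 regions wider in seedlings (49.1 to 61.5), against 46.8% for the 1332 other eligible regions (44.1 to 49.5). From 500 to 750 bp it was 47.9% (42.4 to 53.4) for the wider regions, against 37.9% (36.3 to 39.6). From 750 to 1000 bp it was 35.1% (29.6 to 41.0), against 13.5% (12.8 to 14.3). In seedlings the band under 500 bp gave 46.3% (40.1 to 52.6) for the wider regions, against 42.4% (39.8 to 45.1), and the band from 500 to 750 bp gave 35.8% (30.7 to 41.2), against 34.4% (32.8 to 36.1). These intervals overlapped. From 750 to 1000 bp the seedling share was 21.9% (17.3 to 27.2), against 11.6% (10.9 to 12.3). From 1000 to 1500 bp it was 11.7% (7.70 to 17.4), against 7.66% (7.24 to 8.11), again with overlapping intervals. The intervals cover counting error only, so whether they overlap is no test.

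By pattern, 533 of the 992 regions (53.7%; 78.6% of all eligible regions) lay under no H3K27me3 island at any stage, and 243 (24.5%; 9.27%) lay under one at all 5 stages. Islands at the cotyledon stage only were next, with 54 regions (5.44%; 2.22% of all eligible regions). The median ratio was 2.02 for the regions with H3K27me3 at all 5 stages and 2.01 for those without it at any stage. The rule set a lower limit on this ratio in both classes, so the likeness of the 2 medians is a description only. Covered lengths differed between them. Regions with H3K27me3 at all 5 stages had a median H3K4me3 length of 371 bp in cotyledon-stage embryos, 528 bp in early, 774 bp in mid- and 482 bp in late maturation embryos, and 1220 bp in seedlings. Regions without H3K27me3 had medians of 647, 813, 872, 658 and 1648 bp.

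Where an island was present at all 5 stages, its fold over control ranked lower in seedlings at these regions than at the rest. The authors' fold is a multiple of the ratio of ChIP to control reads, with a constant of its own in each list, so it was read as a percentile within the list. The median percentile at the 243 regions was 81.9 in the cotyledon list, 69.4 in the early, 70.6 in the mid- and 70.2 in the late maturation list, with 54.9 for seedlings. The 2716 other eligible regions with islands at all 5 stages had medians of 82.4, 70.6, 72.1, 67.1 and 75.9. The groups thus lay close to each other at the 4 embryo stages and apart in seedlings, although their quartiles overlapped there, 28.0 to 77.7 at the 243 regions and 52.6 to 89.9 at the others. In each list the 243 regions lay under at least 235 distinct islands, so few of them shared one. The median fold itself was 4.38, 3.79, 3.99, 2.88 and 2.46 at the 243 regions and 4.42, 3.85, 4.06, 2.79 and 3.03 at the others. The percentile was lower in seedlings than the embryo mean in 165 of the 243 regions (67.9%; 49.1% of all eligible regions with islands at all 5 stages), and the fold in 219 (90.1%; 84% of all such regions).

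This difference was smaller under some other choices. With the cotyledon list alone as the reference for width, the median seedling percentile was 69.2 at the wider regions and 75.9 at the others. With islands of a fold of at least 3 it was 64.7 and 65.9, but that limit also removes every region with a low seedling fold, and it left 3.83% of the 992 regions with an island at all 5 stages. With late maturation left out of the embryo mean or with the island of the highest fold in place of the one with the most overlap, it was 54.7 and 54.9 at the wider regions. Within bands of embryo width the order was the same, 60.6 against 80.4 under 500 bp, 55.0 against 75.4 from 500 to 750 bp and 49.8 against 74.5 from 750 to 1000 bp. The band from 1000 to 1500 bp held 17 of the wider regions.

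Across the range of width changes, the median seedling percentile of the H3K27me3 fold was 76.8 for regions of near-constant width. It was 73.3 where seedlings exceeded the embryo mean by 25 to 50%, 69.8 for 50 to 75%, 55.0 for 75 to 100%, 55.6 for 100 to 150% and 53.9 above 150%. The matching embryo percentiles, as means of the 4 lists, stayed between 68.9 and 75.6. The quartiles over regions were wide, from 34.2 to 72.1 in seedlings for the last of these classes, which held 43 regions.

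**Figure D5:**
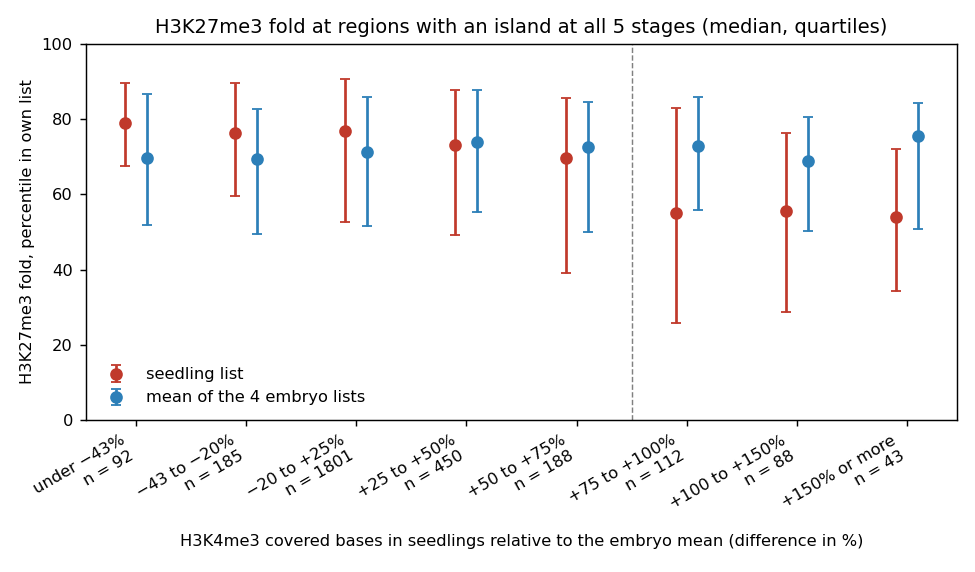
Percentile of the H3K27me3 fold within its own list (vertical axis) for eligible regions with an island at all 5 stages, by the difference in H3K4me3 bases of seedlings from the embryo mean (horizontal axis, % of the embryo mean, n per class). Red points are the seedling list and blue points the mean of the 4 embryo lists, with lines from the lower to the upper quartile over regions. Classes to the right of the dashed line are the regions wider in seedlings, where the red medians lie between 53.9 and 55.6.

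Islands over these regions were also shorter in seedlings. The median island width at the 243 regions was 9400 bp in the cotyledon list, 8800 bp in the early, 6600 bp in the mid- and 8000 bp in the late maturation list, with 4200 bp for seedlings. At the 2716 other regions it was 8400, 7600, 6400, 7600 and 5600 bp. Base by base, H3K27me3 covered 19.5% of the bases that H3K4me3 gained in seedlings over all 992 regions, and 20.7% of the bases under H3K4me3 at all stages. The seedling islands covered 17.9% of the flanks, which are the bases within 1 kb outside the region that hold no H3K4me3. At the cotyledon stage the same bases had been covered to 28.9, 30.9 and 32.3%, and at mid-maturation to 20.3, 21.2 and 22.1%. The flanks were thus covered more than the shared bases at the cotyledon stage and less than them in seedlings. The other eligible regions had the same order, with 8.67% of flank and 10.0% of shared bases covered in seedlings, and 12.8 and 11.3% at the cotyledon stage.

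Of the 8 regions with the largest ratio, 3 lay under H3K27me3 at some stage. At the region of chromosome 4 from 46258921 to 46261182, the island was 16200 bp wide at the cotyledon stage with 5411 ChIP and 1290 control reads and a fold of 5.53, and folds of 4.21, 4.77 and 3.89 followed at early, mid- and late maturation. In seedlings the island was 6600 bp wide, with 587 ChIP and 592 control reads and a fold of 1.70. At the region of chromosome 10 from 40191347 to 40193050 the fold was 4.91, 4.93, 4.42 and 2.71 in embryos and 2.62 in seedlings, where the island was 2200 bp wide, against 6400 bp at the cotyledon stage. As a percentile of its own list, the seedling fold was 17.0 at the region of chromosome 4, against 77.9 to 94.8 in embryos, and 61.2 at that of chromosome 10, close to its 64.0 at late maturation. The region of chromosome 16 from 983506 to 985381 lay under an island at the cotyledon stage only, 2600 bp wide with a fold of 1.97. The region of chromosome 6 that gained on the right had folds of 3.92, 3.65, 3.78 and 2.93 in embryos and 1.80 in seedlings, and its island was 2800 bp wide in seedlings, against 19000 bp at the cotyledon stage.

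H3K27me3 islands at all 4 embryo stages and none in seedlings were found at 26 of the 992 regions (2.62%, Wilson interval 1.79 to 3.81; 0.57% of all eligible regions). Set against the 269 regions with islands at all 4 embryo stages, 9.67% had none in seedlings, where 5.43% of the other eligible regions had none. At 13 of the 26 the nearest seedling island lay within 5 kb, and the median distance was 5657 bp. This was near the 156 other eligible regions with the same pattern, of which 52.6% had a seedling island within 5 kb, at a median of 4718 bp. Within 1 kb the counts were 2 of the 26 (7.69%) and 34 of the 156 (21.8%). The strongest was on chromosome 20 from 44421006 to 44421594, under an island of 29200 bp at the cotyledon stage with 9486 ChIP and 2153 control reads. Its folds were 5.80, 5.26, 5.10 and 3.79 in embryos. H3K4me3 covered 203, 213, 371 and 240 bp there in embryos and 589 bp in seedlings.

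On chromosome 11 from 37594602 to 37596566, folds of 5.11, 4.64, 4.59 and 1.27 were followed by no seedling island. H3K4me3 covered 173, 309, 662 and 1948 bp from the cotyledon stage to late maturation and 1419 bp in seedlings, so this region was already wide at late maturation, where H3K27me3 was weak. On chromosome 8 from 291624 to 292629 the folds were 4.86, 3.27, 4.33 and 2.72, and H3K4me3 covered 208, 460, 669, 692 and 1006 bp from the cotyledon stage to seedlings. The other 3 named by the same rule spanned 49471730 to 49473043 of chromosome 1, 907710 to 910000 of chromosome 11 and 27026960 to 27029349 of chromosome 5. Their seedling H3K4me3 lengths were 1314, 2291 and 2390 bp, against embryo means of 729, 1118 and 1282.5 bp.

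The opposite pattern, H3K27me3 in seedlings and at no embryo stage, was found at 13 of the 992 regions (1.31%), near the share of all eligible regions (1.3%). The highest seedling fold among them was 2.29, on chromosome 19 from 44900179 to 44901047, where H3K4me3 covered 227, 317, 647, 664 and 850 bp from the cotyledon stage to seedlings. The next, 2.22, belonged to a region of chromosome 15 spanning 384859 to 385661, and 2.10 to one of chromosome 20 spanning 42988908 to 42990805. The other 3 named had seedling folds of 1.55 to 1.88.

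Some of the regions still lay under H3K27me3 islands of a high fold for the seedling list, while H3K4me3 exceeded its embryo mean. The highest mean fold over the 5 lists was on chromosome 17 from 4921026 to 4922274, with 9.86, 7.17, 8.60, 3.79 and 4.54 from the cotyledon stage to seedlings, and H3K4me3 over 138, 466, 1036, 741 and 1169 bp. On chromosome 19 from 48830385 to 48831205 the folds were 7.22, 7.20, 7.84, 4.11 and 6.12, and H3K4me3 covered 342, 388, 635, 252 and 772 bp. The other 2 named spanned 2473618 to 2474636 of chromosome 2 and 2254172 to 2255297 of chromosome 10, and had seedling folds of 4.04 and 4.76. At that of chromosome 2 the cotyledon fold was 7.30, and the island was 26600 bp wide at that stage and 6200 bp in seedlings. At that of chromosome 10 H3K4me3 covered 1106 bp at mid-maturation and 1088 bp in seedlings, so it was not wider than at mid-maturation. In all 4 of these regions the seedling fold had a percentile of at least 94.9 in its list, and mid-maturation was the widest embryo stage of H3K4me3. The seedling fold entered the mean by which the 4 were chosen, so its high percentile is partly set by that choice.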

How the data were processed

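H3K4me3, H3K27me3 and total H3 were profiled by ChIP-seq in 5 stages. Reads were aligned with Bowtie 0.12.7 and handled with SAMtools 0.1.19, and MACS2 (version not given) and SICER 1.1 were used, per the submitters' processing notes; the genome build is not given in the sources used here. The authors deposited 10 lists, 1 per stage and mark over both replicates, and the 2 mid-maturation lists were matched to their samples by stage code. The H3K4me3 lists give peak positions and a score whose meaning is not stated, as deposited by the authors. The H3K27me3 lists give, as deposited by the authors, counts of ChIP and control reads per island, a p-value, an FDR and a fold, the ratio of ChIP to control reads times a constant of the list. The control is not named in the lists. At late maturation 474 islands and in seedlings 310 had an FDR above 0.05 and were left out.

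From these lists the union regions, covered bases, edge shifts and island overlaps (at least 1 bp; the island with the most overlap gave fold and width) were computed with Python 3.11.15, numpy 2.4.6, pandas 2.3.3, scipy 1.17.1 and matplotlib 3.10.9. The scripts were tested on simulated lists with known regions. Each list's own percentile was used to set scores and folds side by side. Each group was 1 list, so no p-value was computed; shares carry 95% Wilson intervals, which cover counting error only. Library depth is not in the lists.

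The regions and lists were chosen with earlier results of these data known. Regions named are the 8 largest ratios, the 4 largest gains, the 4 on each side of the limit, the 6 with the highest mean embryo fold among those with H3K27me3 in embryos only, the 6 with the highest seedling fold among those with it in seedlings only, the 4 with the highest mean fold among those with it at all 5 stages, the 2 with the largest gain on the left and the 2 on the right with the other edge within 100 bp, and the first run of neighbours. The bands of width and ratio, the base zones and the values at regions with H3K27me3 at all 5 stages were chosen after the data were seen. Genes at these places and their sequences were not analysed here. Alternative ratios, widths, scores, overlaps, islands and edges were tried.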

Additional observations from a re-analysis of the deposited data

Results flagged for a closer look

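At late maturation, 9 of the 992 regions (0.907%; 0.768% of all eligible regions) lay under H3K27me3 islands with an FDR above 0.05, which the other results do not use; in seedlings 3 regions did (0.302%; 0.232% of all eligible regions).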

How the results depend on the processing

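No paired analysis was possible because the replicates were deposited together as 1 list, and for the same reason no replicate could be left out. Of 121 alternative values, 76 stayed near the main value and 45 moved. Most of them are counts or shares, which have no direction, so a change of direction was not assessed. Where a value moved, the cause was not tested beyond the alternative's own change of regions or islands. The number of regions was 2052 at a ratio of 1.5, 540 at a ratio of 2, 255 against the widest embryo list, 2237 against the cotyledon list alone (853 of them among the 992) and 57 with peaks at or above the median score of their list.

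With islands of a fold of at least 3, a limit that is not equally strict in lists of different constants, the share under H3K27me3 was 25.9% at the cotyledon stage, 19.7% at early, 19.3% at mid- and 10.7% at late maturation and 7.36% in seedlings. In the other eligible regions it was 10.5, 8.07, 7.28, 4.31 and 5.23%. The same limit gave 5.24% with H3K27me3 at all 4 embryo stages and not in seedlings, 0% with it in seedlings only, 3.83% with it at all 5 stages, a median seedling percentile of 64.7 (the limit itself removes low seedling folds) and 5.82% of flank bases in seedlings. An overlap of 50% of the region gave 38.4% at the cotyledon stage, against 14.2% in the other eligible regions.

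At a ratio of 1.5 the shares under H3K27me3 were 37.0, 27.6, 26.4, 30.8 and 27.5% from the cotyledon stage to seedlings. In the other eligible regions at that ratio they were 15.8, 12.1, 10.3, 13.6 and 13.4%. Of the wider regions 21.0% had H3K27me3 at all 5 stages, with a seedling percentile of 62.6. On 1 side 84.0% were widened, and 40.6% were widest at mid-maturation among embryo lists. The median gain was 545 bp on the side that gained more. At a ratio of 2, 76.3% were widened on 1 side and this gain was 719.5 bp. Peaks of at least 200 bp gave 27.3% under H3K27me3 in seedlings, against 13.3% in the other eligible regions. They gave a gain of 690 bp and 21.3% split into more than 1 peak in some list (26.1% in the 992 regions).

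Against the cotyledon list alone the shares were 47.3, 36.6 and 34.2% at the cotyledon stage, early and mid-maturation, and 37.4% in seedlings. In the other eligible regions of that setting these shares were 14.9, 11.3, 9.61 and 12.6%. Of the wider regions 28.9% had H3K27me3 at all 5 stages, with a percentile of 69.2. On 1 side 64.4% were widened, with a gain of 364 bp, and 51.2% were widest at mid-maturation. Leaving late maturation out of the mean gave a gain of 613 bp and 36.8% widest at mid-maturation. Limits of 100 and 400 bp for an edge gave 54.5 and 76.8% widened on 1 side, and the middle 33.3% of the chromosome span held 11.6% of the regions, against 21.8% in its middle 50%. The alternatives for H3K27me3 at all 5 stages, the percentile and the flanks, and those on the cotyledon list for edges and stage order, were added after the data were seen.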

Other observations

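The 992 regions were spread over the genome much as the other eligible regions were. Of them 989 lay on numbered chromosomes and 3 on scaffolds. Their share of the eligible regions ran from 2.17% on chromosome 17 (35 of 1615) to 4.17% on chromosome 16 (47 of 1127), around 3.11% for the genome. The middle 50% of the chromosome spans held 21.8% of them and 21.5% of the other eligible regions. In the order of union regions 948 stood alone and the longest run was 2 neighbours, found 22 times. The first such pair lay on chromosome 1, from 14972861 to 14973782 with 205, 642, 640, 319 and 922 bp covered from the cotyledon stage to seedlings, and from 15194553 to 15195893 with 528, 743, 872, 532 and 1341 bp.

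Another H3K4me3 region lay close to these regions, and to those narrower in seedlings, more often than to the eligible regions as a whole. The nearest one was within 1 kb for 255 of them (25.7%), against 17.3% of the other eligible regions, and the median distance was 2990 bp, against 3848 bp. For the regions narrower in seedlings these values were 28.8% and 2543 bp. For the regions that widened on 1 side, the next region lay at a median of 4876.5 bp on the side that widened and 7574 bp on the other side. The other eligible regions widened on 1 side had the same order, with 6544 bp on the side that widened and 7312.5 bp on the other side. All these distances start at the edges of the union region, which includes the bases gained in seedlings. The gain itself thus shortens the distance on the side that widened, and its part in the order was not tested. No test over regions was made, since neighbours are not independent.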
